A study of Rattus with 26 samples.

Results

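The genes described here encode synaptotagmins and other proteins of vesicle fusion, measured in the hippocampus of young and aged male F344 rats that received intranasal insulin aspart or saline. They were picked by a rule on gene symbols, set with earlier results of these data known. The rule took the synaptotagmin (Syt), syntaxin (Stx), vesicle-associated membrane protein (Vamp), complexin (Cplx) and syntaxin binding protein (Stxbp) genes. It also took the Sv2 and Rab3 genes with Rab3ip, and Snap23, Snap25, Snap29, Snap47, Syp, Syn1, Syn2, Syn3, Nsf, Unc13a, Unc13b and Unc13c. The rule found 63 of the 15037 genes named on the array, each with a single transcript cluster (the array's set of probes for a gene). Of these, 58 were bright enough to be tested, among 11475 tested genes in all. The other 5 were Cplx3, Cplx4, Stx11 and Syt15, which lay under the brightness filter of 5.06 on every array, and Stx19, which was above it on 4 of 26 arrays.

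Young rats were 2 months old at the start of treatment and 5 months old at its end, and aged rats were 18 and 21 months old. All received daily intranasal saline or insulin aspart, a fast-acting insulin analogue, for 3 months and were run through the Morris water maze in the last week. The whole right hippocampus was profiled in 26 rats, 1 array per animal. Of the young rats 6 received saline and 5 aspart, and of the aged rats 8 received saline and 7 aspart. The saline groups are the controls, and all 4 groups share the nasal dosing and the maze.

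Neurotransmitter is released when a vesicle SNARE (a Vamp protein) zippers together with syntaxin and SNAP-25 on the plasma membrane and pulls the membranes into fusion. Munc13 and syntaxin binding proteins prepare this complex, complexins hold it ready, synaptotagmins trigger it on binding calcium, and Nsf takes it apart for reuse. Syntaxins, Vamp proteins and synaptotagmins of other kinds serve fusion at the Golgi, the endosomes and the endoplasmic reticulum, and in the release of peptides and growth factors.

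The values are the authors' log2 signals, and every change below is a difference of group means on that scale, given with its standard error (SE). Adjusted p-values come from limma with Benjamini-Hochberg adjustment over the 11475 genes, and a gene is called when its adjusted p is under 0.05. Arrays had medians of 6.64 to 6.72, and any pair of arrays correlated at 0.981 to 0.995 across genes. The labelled tissue carried its markers: group means were 12.52 to 12.74 for Wfs1 of CA1 pyramidal cells, 13.99 to 14.10 for Gad1 of inhibitory neurons and 10.63 to 10.78 for Prox1 of dentate granule cells. The mean over choroid plexus markers was 11.90 in young saline replicate 5 and 10.67 in young aspart replicate 3, against 5.13 to 8.15 in the other 24 animals, so the genes called for age below are also given without those 2. The mean over 2 erythrocyte markers was 12.14 in aged aspart replicate 6, against 4.81 to 8.66 in the other animals. Because each array reads a whole hippocampus, fewer cells of a type and less RNA per cell cannot be told apart.

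Age was compared first. Syt10, a calcium-binding synaptotagmin known from olfactory bulb neurons as the trigger for release of insulin-like growth factor, was lower in aged than in young rats and was the only one of the 58 tested genes to be called in any of the 7 comparisons. In young saline rats its log2 signal ran from 8.08 to 8.58 with a median of 8.24. In the 5 young aspart rats it was 9.14, 8.64, 7.85, 8.07 and 8.57. The signal ran from 7.26 to 7.87 with a median of 7.72 in aged saline rats, and from 7.29 to 8.20 with a median of 7.94 in aged aspart rats. Every aged saline rat was below every young saline rat, whereas the aspart groups overlapped. The young aspart rats were the most spread.

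Group means of Syt10 on saline were 8.28 ± 0.18 (SD, n = 6) in young and 7.62 ± 0.22 (SD, n = 8) in aged rats. On aspart they were 8.45 ± 0.51 (SD, n = 5) and 7.87 ± 0.32 (SD, n = 7). Averaged over both treatments, Syt10 fell by 0.62 ± 0.12 (SE) with age, a 1.54-fold lower signal (95% interval of the change -0.87 to -0.38, limma adjusted p = 0.00297). Of all tested genes 0.776% were called in this comparison, 70 higher (0.61%) and 19 lower (0.166%) in aged rats. Among the saline rats alone the change was -0.67 ± 0.16 (adjusted p = 0.0756), and among the aspart rats alone -0.58 ± 0.18 (adjusted p = 0.439). Neither change was called by itself. Without the 2 animals rich in choroid plexus signal the change over both treatments was -0.71 (adjusted p = 0.000852).

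**Figure D1:**
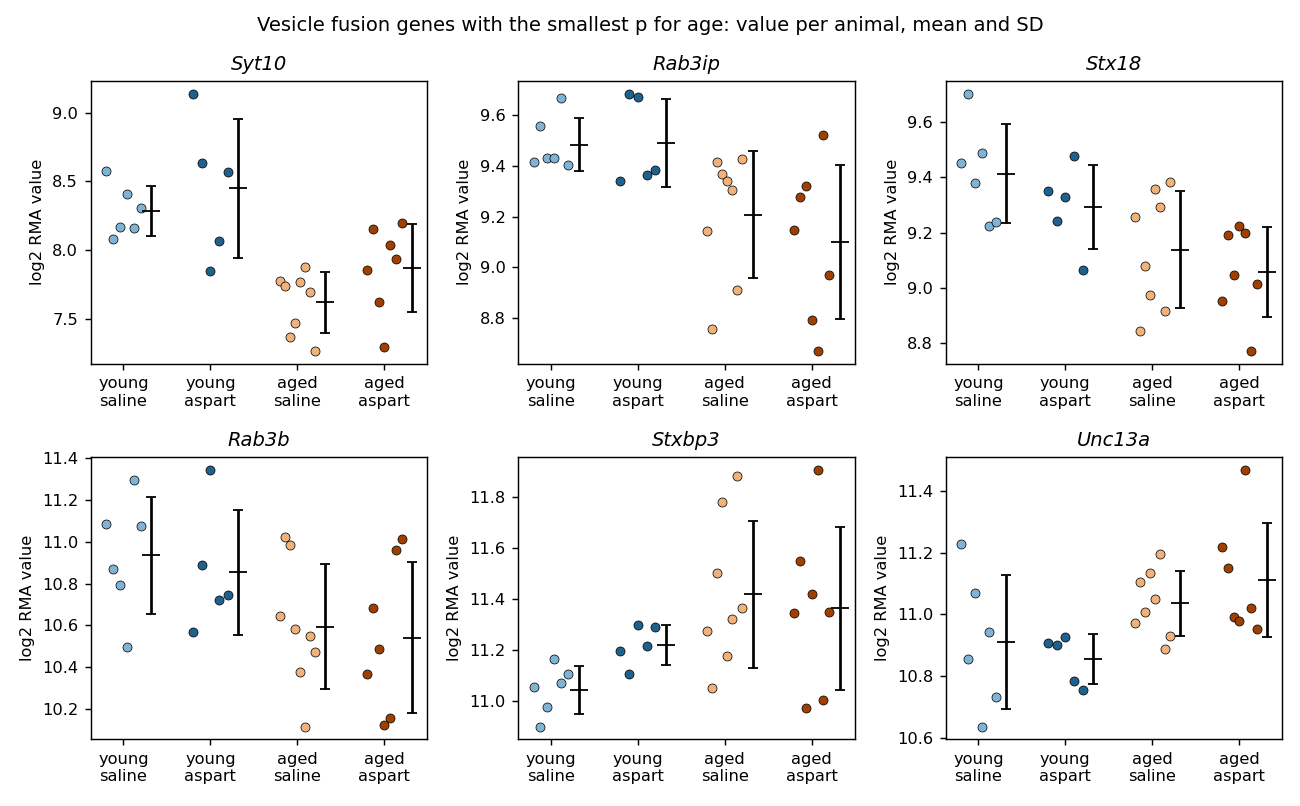
Log2 signal of Syt10, Rab3ip, Stx18, Rab3b, Stxbp3 and Unc13a in each of the 26 rats (points) by group, with the group mean and SD. Syt10 in aged saline rats lies wholly below its values in young saline rats (7.26 to 7.87 against 8.08 to 8.58); the other 5 genes differ less between ages, with overlapping saline groups.

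Syt10 forms a subfamily with Syt3 and Syt6, which share cysteines near the amino terminus that link them into dimers. The change with age was 0.02 for Syt3 (95% interval -0.20 to 0.23) and 0.02 for Syt6 (-0.21 to 0.24). For Syt5, not assigned to a class here, it was -0.12 (-0.28 to 0.05). The intervals of all 3 lie above that of Syt10. The differences between genes were not tested. Over the 57 tested genes other than Syt10 the change ran from -0.33 for Rab3ip to 0.26 for Stxbp3, with a median of 0.02, against a median of -0.01 over all tested genes. Among all 11475 genes Syt10 stood at rank 25 from the lowest change and at rank 39 by p.

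Genes of other cell types also differed with age in these animals. Of 11 tested microglial markers all 11 were higher in aged rats. Laptm5 was called (0.70, adjusted p = 0.00043; without the 2 choroid-rich rats 0.76, adjusted p = 0.000363), as was the astrocyte filament gene Gfap (0.59, adjusted p = 0.000153; without them 0.58, adjusted p = 0.000416). The microglial gene Trem2 (0.49, adjusted p = 0.0341) and the meningeal collagen gene Col1a1 (-0.64, adjusted p = 0.0149) were called too, but not without those 2 rats (0.44 and -0.48, adjusted p = 0.130 and 0.0972). All 8 tested meningeal fibroblast markers were lower in aged rats. The mean over these markers was 8.82 and 8.45 in the 2 choroid-rich rats, 6.05 to 6.51 in the other 9 young rats and 5.79 to 6.23 in the 15 aged rats, and without the 2 the median change went from -0.69 to -0.24. The mean over the 8 tested astrocyte markers, Gfap among them, did not rise in the same way. It was 13.75 in young and 13.73 in aged saline rats, and 13.73 and 13.78 in young and aged aspart rats. Of 10 interneuron markers 9 were lower, with a median change of -0.04 and none called, and of 7 pyramidal cell markers 3 were lower. The part of these differences in the Syt10 result was not tested.

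The calcium triggers of fast release did not pass the test for age. The change of Syt1, the main sensor for synchronous release in forebrain, was 0.00 (95% interval -0.16 to 0.17). That of its relative Syt2, which serves the same role at other synapses, was 0.07. For Syt9, not assigned to a class here, it was 0.23. That of Syt7, the sensor linked to asynchronous release and facilitation, was 0.02 (-0.18 to 0.22). Of the other synaptotagmins, which bind calcium weakly or not at all or have less settled roles, 6 were tested and none was called. Syt8 (-0.21) and Syt17 (-0.19) had the lowest changes among them and Syt12 (0.12) the highest.

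Snap25, Stx1a and Vamp2, SNAREs of synaptic vesicle fusion, had age differences whose intervals held 0. The difference was -0.04 for Snap25, which spans the fusion complex from the plasma membrane side (95% interval -0.14 to 0.07), -0.06 for Stx1a (-0.23 to 0.12) and -0.16 for the vesicle SNARE Vamp2 (-0.40 to 0.08). Snap25 lay between 19.35 and 19.78 on every array, close to the highest value in the table, 19.93, where a change can be compressed. The vesicle SNAREs had 5 of 7 changes below 0 with a median of -0.06, whereas 51.9% of all genes were below 0. None of the 7 was called.

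The leading genes of the vesicle membrane, the complexins and Nsf had age intervals that held 0. The changes were 0.03 for Syp (synaptophysin), 0.06 for Sv2a, the binding site of the drug levetiracetam, and -0.16 for Syn1, which tethers vesicles to each other. They were 0.03 and 0.00 for Cplx1 and Cplx2, the complexins of forebrain synapses (95% intervals -0.15 to 0.21 and -0.18 to 0.18), and 0.02 for Nsf, the ATPase that takes SNARE complexes apart (-0.18 to 0.22). The interval of the change lay inside -0.5 to 0.5 for 53 of the 58 genes. For most of these genes the data therefore bound an age difference to less than 0.5 on the log2 scale.

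Besides Syt10, the smallest p-values for age belonged to 4 genes that were not called. Rab3ip, an exchange factor that activates Rab8 and binds Rab3, ran from 9.40 to 9.67 with a median of 9.43 in young saline rats, was 9.34, 9.68, 9.67, 9.36 and 9.38 in young aspart rats, and had medians of 9.32 (8.76 to 9.43) in aged saline and 9.15 (8.67 to 9.52) in aged aspart rats. The aged groups reached lower than the young ones and overlapped them. Its change was -0.33 ± 0.10 (adjusted p = 0.110), and without aged aspart replicate 6 it was called (adjusted p = 0.0348). Stx18, a SNARE of the endoplasmic reticulum, had a change of -0.26 ± 0.09 (adjusted p = 0.220), with a mean of 9.41 ± 0.18 (SD) in young saline and 9.14 ± 0.21 in aged saline rats. For Rab3b, a small GTPase of synaptic and secretory vesicles, it was -0.33 ± 0.12 (adjusted p = 0.258).

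Stxbp3, the partner of Stx4 in insulin-stimulated fusion of glucose transporter vesicles, had the highest change of the 58 genes over both treatments. Its log2 signal ran from 10.90 to 11.16 with a median of 11.06 in young saline rats and was 11.19, 11.10, 11.30, 11.21 and 11.29 in young aspart rats. It ran from 11.05 to 11.88 (median 11.34) in aged saline and from 10.97 to 11.91 (median 11.35) in aged aspart rats. The aged rats spread over a wider range, which overlapped that of the young rats. The change with age was 0.26 ± 0.09 (adjusted p = 0.280) over both treatments and 0.38 ± 0.13 (adjusted p = 0.418) in saline rats.

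Seen by role, all 5 Rab3 genes, Rab3ip included, had changes below 0 with age (median -0.16), and all 5 tested syntaxin binding protein genes had changes above 0 (median 0.16). Of 7 syntaxins of internal membranes 6 were above 0, with Stx18 the exception. None of these 17 genes was called, so the counts describe signs only. Over all 58 genes 7 had an unadjusted p under 0.05 (12.1%), against 9.86% of all genes, a share near the background.

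**Figure D2:**
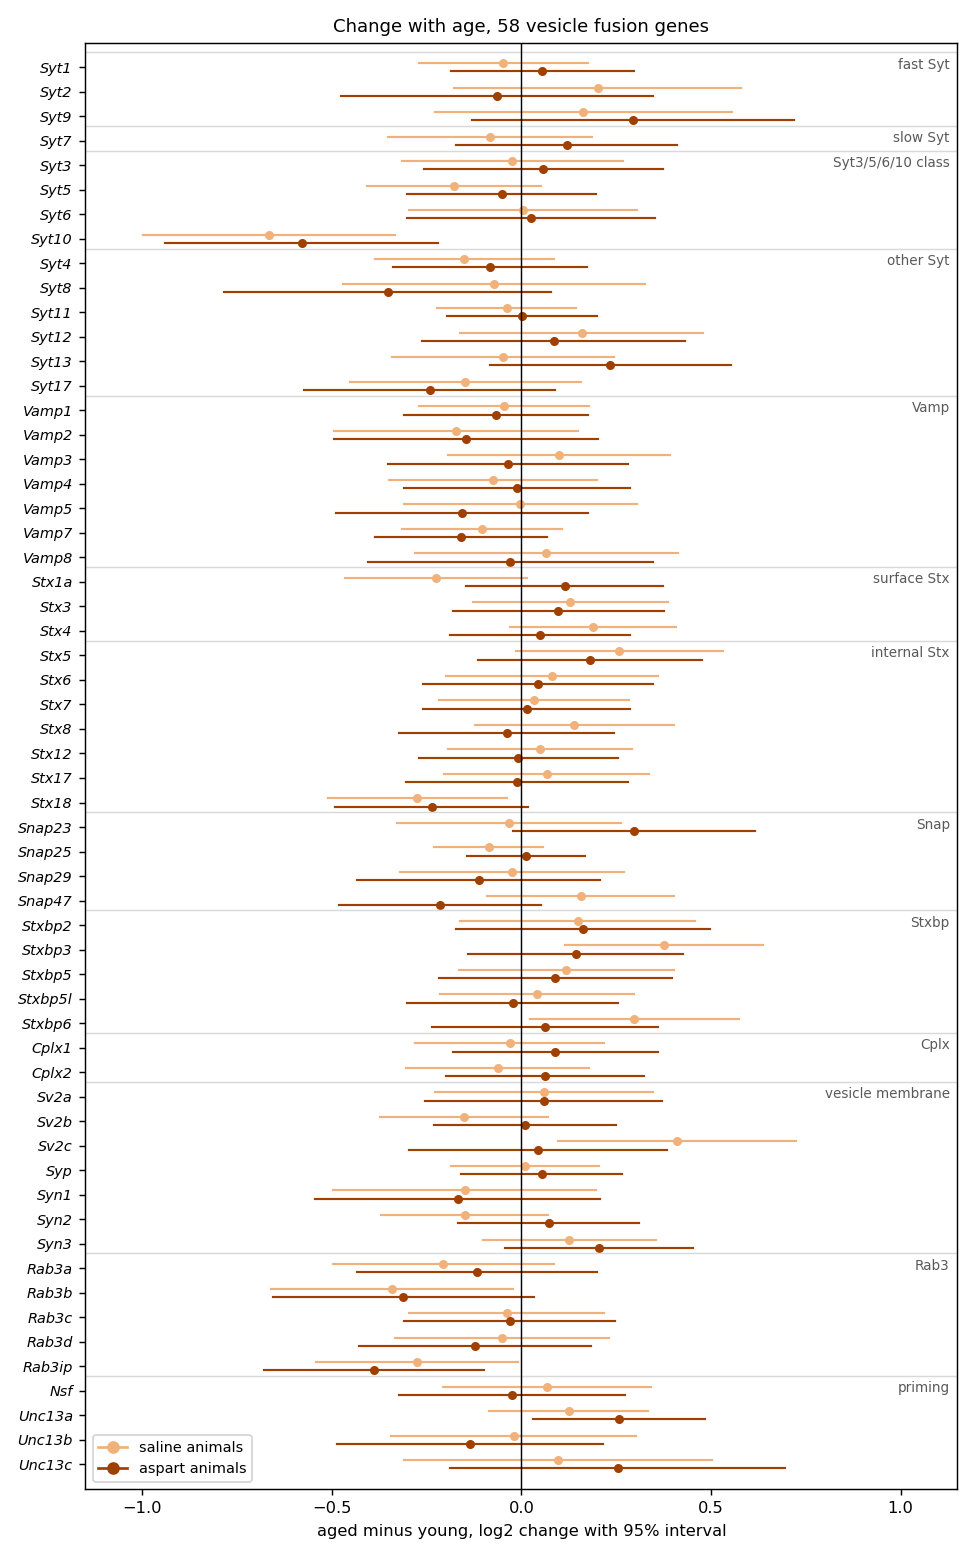
Change with age (aged minus young, log2) of each of the 58 tested genes, grouped by role, in saline rats and in aspart rats, with 95% confidence intervals. The classes drawn for Syt5 and Syt9 are not used in the text. Syt10 lies lowest in both (-0.67 and -0.58), and the intervals of most other genes span 0.

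Within single treatments, no gene of the set was called for age. In saline rats 0.261% of all genes were called (0.0261% lower in aged rats) and in aspart rats 0.0523%. Changes were below 0 for 31 of the 58 genes in saline rats (53.4%, against 53% of all genes) and for 28 in aspart rats (48.3%, against 50.1%). Behind Syt10, the smallest p-values in saline rats belonged to Stxbp3, to Sv2c (0.41 ± 0.15, adjusted p = 0.549), a vesicle glycoprotein found mainly in basal ganglia and some interneurons, to Stx18 (-0.27) and to Stxbp6 (0.30), which binds plasma membrane SNAREs. Among saline rats the share with an unadjusted p under 0.05 was 12.1% of the 58 genes and 6.39% of all genes. In aspart rats the corresponding genes were Rab3ip (-0.39), Unc13a (0.26), Stx18 (-0.24) and Snap23 (0.30), the SNAP-25 relative of non-neuronal cells, and the shares were 5.17% and 5.59%.

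Syt10 was the only one of the 58 genes whose young and aged saline values did not overlap, where 0.392% of all genes did not. Unc13a, the Munc13 protein that primes most hippocampal vesicles, was the only one whose aspart values did not overlap, also against 0.392%. With treatments pooled, 0 of the 58 genes separated all young from all aged rats (0.0349% of all genes). It was 10.91, 10.90, 10.93, 10.78 and 10.76 in young aspart rats and ran from 10.95 to 11.47 (median 11.02) in aged aspart rats. In saline rats the ages overlapped, at 10.64 to 11.23 and 10.89 to 11.20. Over both treatments its change was 0.19 ± 0.08 (adjusted p = 0.349), and in aspart rats alone the adjusted p was 0.849.

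Insulin aspart was then compared with saline within each age. No gene of the set was called in either age, and neither was any of the 11475 genes (0%); at an unadjusted p under 0.05, limma gave 538 genes (4.69%) in aged and 280 (2.44%) in young rats. Among the 58 genes the count at that level was 2 in each age (3.45%). In aged rats the median change was 0.00 against 0.01 over all genes, with a range from -0.30 for Sv2c to 0.27 for Syt7, and 30 of 58 differences were below 0 (51.7%, against 46.7%). In young rats the median was 0.01 against 0.00, with a range from -0.34 for Stx1a to 0.35 for Syt2, and 25 were below 0 (43.1%, against 50.2%). The aspart and saline groups overlapped for all 58 genes at each age, as they did for all but 0.0174% of tested genes in aged and 0.192% in young rats.

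Syt10 was 0.25 ± 0.16 higher in aged aspart than in aged saline rats (95% interval -0.07 to 0.57, adjusted p = 0.911) and 0.17 ± 0.18 higher in young aspart than in young saline rats (adjusted p = 0.999). Over both ages the difference was 0.21 ± 0.12 (adjusted p = 0.861). The groups overlapped in both ages, and each difference was smaller than the SD of its aspart group. Without young aspart replicate 1, which had the highest Syt10 signal of all 26 rats, the difference in young rats was -0.0045. The difference in aged rats and the fall of Syt10 with age in saline rats use the same aged saline animals.

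In aged rats Syt7 had the smallest p for aspart. It ran from 11.51 to 12.04 with a median of 11.76 in aged saline rats and from 11.73 to 12.64 with a median of 11.93 in aged aspart rats. The highest value belonged to aged aspart replicate 6, the array whose positive and negative control probe sets lay farthest apart, and the groups overlapped. The difference was 0.27 ± 0.13 (adjusted p = 0.911), and 0.12 with that separation of controls in the model, an alternative added after seeing the data. Without that rat it was 0.17. The same rat had the highest means of all rats over erythrocyte (12.14) and microglial (9.02) markers. The part of these markers in the aspart differences was not tested. Sv2c differed by -0.30 ± 0.15, Stxbp5l, an inhibitor of SNARE assembly, by -0.22, the calcium-regulated priming protein Unc13b by -0.27 and the synapsin Syn2 by 0.18. Without aged aspart replicate 6 the differences of Stxbp5l, Unc13b and Syn2 were -0.11, -0.14 and 0.12, and with control separation in the model -0.017, -0.038 and 0.062. The higher Sv2c in aged saline rats above and its lower value with aspart here use the same 8 aged saline animals.

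The core fusion genes had intervals around 0 in this comparison too. The aspart difference in aged rats was -0.02 for Syt1 (95% interval -0.24 to 0.19), 0.04 for Snap25 (-0.09 to 0.18), 0.00 for Stx1a (-0.23 to 0.23) and 0.06 for Syp (-0.13 to 0.25). Vamp2 (0.13), Syn1 (0.21), Rab3a (0.21) and Cplx1 (0.15) had wider intervals that also held 0. The interval was inside -0.5 to 0.5 for 50 of the 58 genes.

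In young rats the smallest p-values for aspart belonged to Stx1a and Snap47. Stx1a, the syntaxin of presynaptic release sites, ran from 11.89 to 12.42 with a median of 12.12 in young saline rats and was 11.49, 11.56, 12.06, 12.21 and 11.70 in young aspart rats. Of the 5 aspart rats, 3 lay under every saline rat and the others within their range. The difference was -0.34 ± 0.13 (adjusted p = 0.999). Snap47, a SNAP-25 relative that is not bound to membranes by fatty acids, differed by 0.34 ± 0.14, the endosomal SNARE Vamp3 by 0.30, Syt2 by 0.35 and the vesicle glycoprotein Sv2b by -0.22. Without young aspart replicate 1 the difference of Syt2 was 0.16, and without young saline replicate 2 it was 0.22. The interval was inside -0.5 to 0.5 for 47 of the 58 genes.

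**Figure D3:**
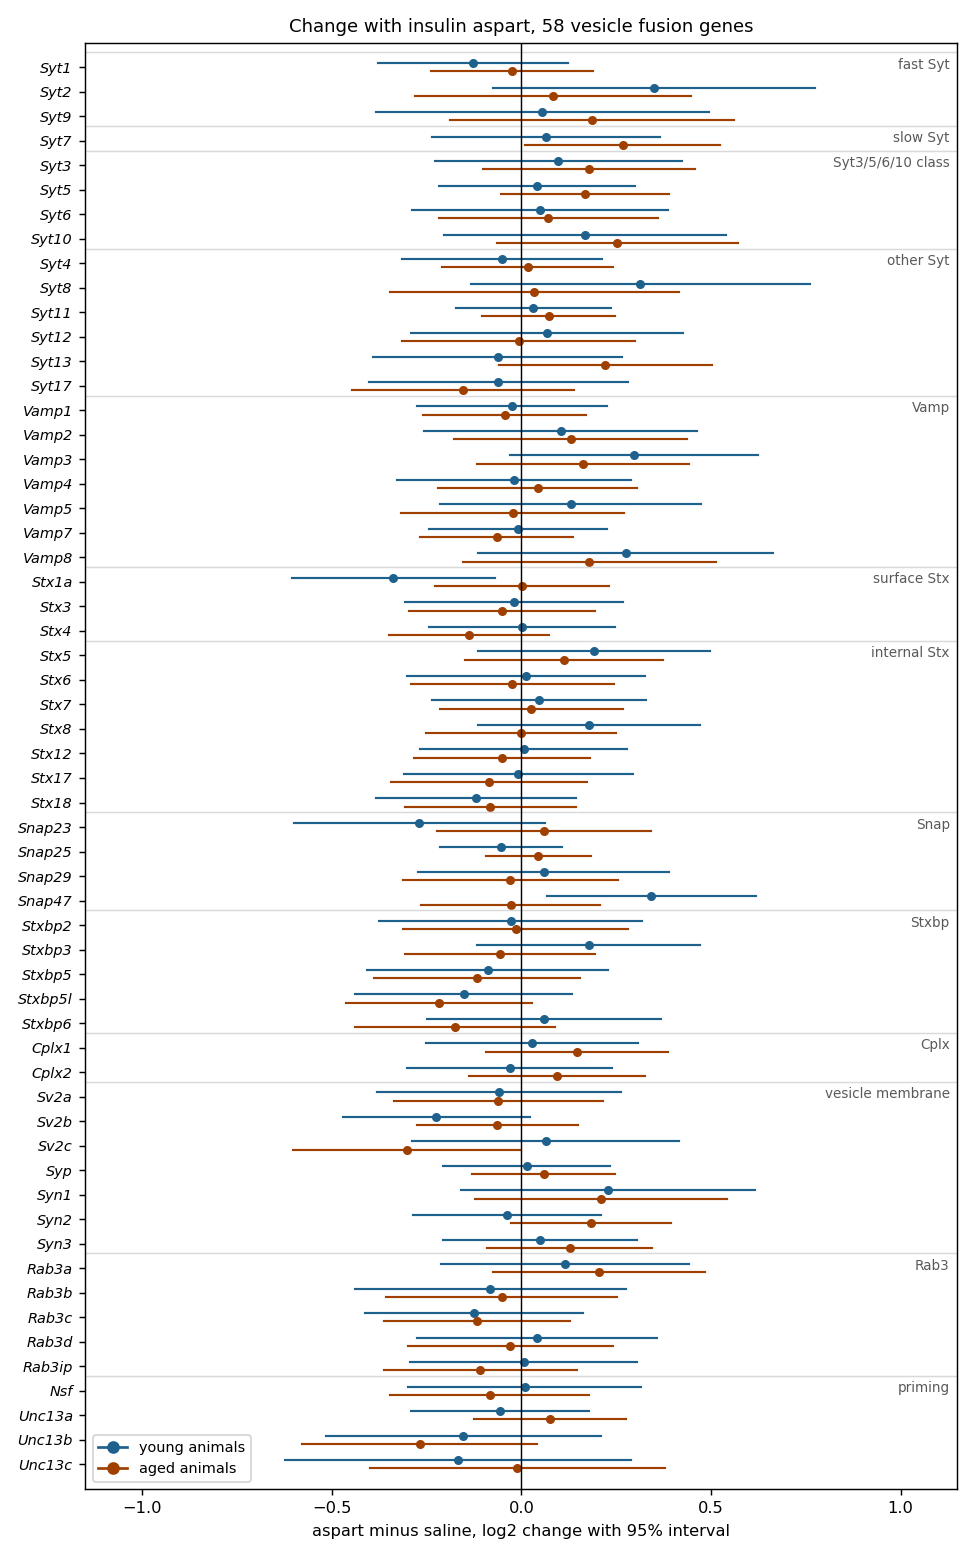
Difference between insulin aspart and saline (aspart minus saline, log2) of each of the 58 tested genes, grouped by role, in young and in aged rats, with 95% confidence intervals. The classes drawn for Syt5 and Syt9 are not used in the text. No gene was called in either age; Syt7 has the highest difference in aged rats (0.27) and Stx1a the lowest in young rats (-0.34).

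Whether aspart acted differently by age was tested as an interaction, the aspart effect in aged minus that in young rats. No gene of the set was called, nor any of the 11475 (0%); at an unadjusted p under 0.05 limma gave 203 genes (1.77%), of which 1, Snap47, belonged to the set (1.72%). The interaction was below 0 for 30 of the 58 genes (51.7%, against 47.6%). Its interaction was -0.37 ± 0.18, and that of Stx1a 0.34 ± 0.17. For Syt10 it was 0.09 ± 0.24 (adjusted p = 1.00). Over both ages 27 of the 58 aspart differences were below 0 (46.6%, against 47.9%), and 1 had an unadjusted p under 0.05 (1.72%, against 5.19% of all genes). The smallest p-values were those of Vamp3 (0.23 ± 0.11), Stxbp5l (-0.19), Stx1a (-0.17), Vamp8 (0.23), a SNARE of late endosomes, and Sv2b (-0.14).

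Other genes of the release pathway were counted from lists. None was called for age over both treatments or for aspart in aged rats. Of 21 tested active zone and docking genes, 18 had an age change above 0 (median 0.06). Of 27 fusion cofactors and other vesicle proteins 16 were below 0 (median -0.05), and 6, all below 0, had an unadjusted p under 0.05 (22.2%, against 9.86% of all genes); the lowest was the synaptophysin relative Synpr (-0.34 ± 0.09, adjusted p = 0.0671; -0.39 and adjusted p = 0.00386 without aged aspart replicate 6). Of 12 genes that load transmitter into vesicles 9 were below 0 (median -0.04), as were 8 of 20 for vesicle endocytosis (median 0.02) and 11 of 19 for cargo of dense-core vesicles (median -0.04), among them the interneuron peptide Sst (-0.39 ± 0.11, adjusted p = 0.109). Of 16 immediate early genes, which neuronal activity switches on, 15 were below 0 (median -0.16), with Npas4 lowest (-0.36 ± 0.18, adjusted p = 0.517; -0.15 without the 2 choroid-rich rats). Young saline replicate 6 stood apart, with a mean over the immediate early genes of 9.96 against 8.83 to 9.39 in the other young rats. Without it 10 of the 16 immediate early genes were below 0 with age (median -0.044).

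For aspart in aged rats, the largest difference in each list was in Rims4 (0.41 ± 0.19), an active zone protein; Sytl5 (-0.49 ± 0.21), a synaptotagmin-like partner of Rab27; Slc32a1 (0.32 ± 0.16), the vesicular GABA transporter; Pacsin1 (0.40 ± 0.14), which shapes membranes in endocytosis; the secreted peptide precursor Vgf (0.35 ± 0.18); and the transcription factor Egr3 (0.43 ± 0.20). Each had an adjusted p of 0.911. With control separation in the model these 6 differences ranged from -0.16 for Sytl5 to 0.25 for Pacsin1. Of the 16 immediate early genes 13 had a difference above 0 (median 0.13). Without aged aspart replicate 6, whose mean over the immediate early genes was 9.62, there were 10 (median 0.046), and with control separation in the model 7 (median -0.042). Of the 20 vesicle endocytosis genes 15 were above 0 (median 0.09), and 12 without aged aspart replicate 6 (median 0.059). All 4 tested dentate granule cell markers were higher with aspart in these rats (median 0.22) and none was called. The mean over these markers was 9.75 and 9.67 in aged aspart replicates 6 and 7. It was 9.15 to 9.38 in the other aged aspart rats and 9.04 to 9.32 in aged saline rats. Replicates 6 and 7 also had the highest control separation among aged rats (0.872 and 0.841). The counts of this paragraph share the aged saline animals with the comparison of ages in saline rats.

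Several fusion genes followed a property of the array. Control separation is the chance that a positive control probe set lies above a negative one, and it ran from 0.815 to 0.872 over the 26 arrays; group means on saline were 0.828 in young and 0.821 in aged rats, and on aspart 0.834 and 0.833. Within groups, 18 of the 58 genes had a called slope on it (31%), 11 positive and 7 negative, against 28.6% of all genes, a share near the background. Vamp2 rose by 0.22 ± 0.03 per 0.01 of separation (adjusted p = 3.94e-06), followed in size by Syn1 (0.21), Rab3a (0.19) and Cplx1 (0.16), whereas Unc13c (-0.20), Unc13b (-0.20), Stxbp5l (-0.17, adjusted p = 5.26e-06) and Syt1 (-0.14, adjusted p = 0.000105) fell. Without the arrays farthest from the median, aged aspart replicate 6 and young aspart replicate 4, 7 of the 58 genes were called (12.1%, against 4.22% of all genes): Vamp2, Rab3a, Cplx1, Syt3, Syt1, Stxbp5l and Stxbp6. The slope of Syt10 was 0.01 ± 0.05 (adjusted p = 0.906), and its change with age was -0.62 with control separation in the model.

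**Figure D4:**
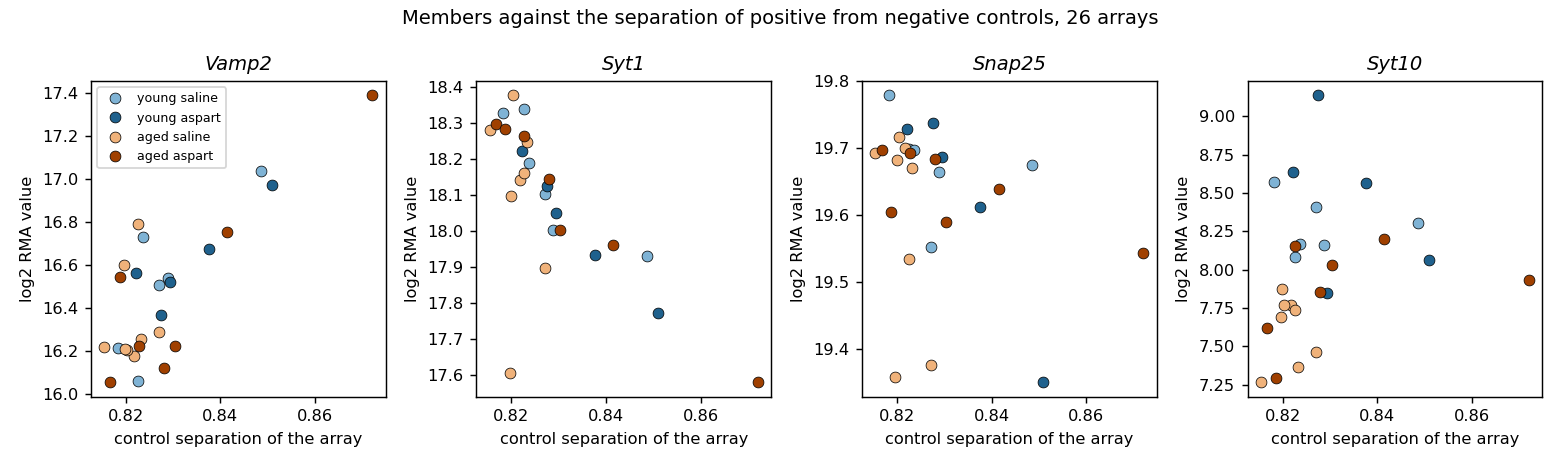
Log2 signal of Vamp2, Syt1, Snap25 and Syt10 against control separation (a share from 0 to 1) on each of the 26 arrays, by group. Vamp2 is higher and Syt1 lower on arrays of high separation, aged aspart replicate 6 (0.872) lies at the right edge, and Syt10 shows no slope (0.01 per 0.01).

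Which genes vary with Syt10 from rat to rat was described with group means removed. Over the 26 rats, and among 11474 other tested genes, the highest Pearson correlations were with Pycr1 (0.73), Syt2 (0.73), Rcan2 (0.71), Pyroxd2 (0.70) and Shmt2 (0.68). Syt2 was the only fusion gene among these 5. Its Spearman correlation with Syt10 was 0.69, and without the 2 rats farthest from the median of Syt2, young aspart replicate 1 and young saline replicate 2, Pearson's r was 0.66. Young aspart replicate 1 had the highest signal of both genes, 9.14 for Syt10 and 7.50 for Syt2. Within single groups Pearson's r ran from 0.40 in young saline (n = 6) to 0.98 in young aspart rats (n = 5). The points share arrays and their normalization, and the genes were ranked on these same values, so the correlations carry no test. Syt2 itself did not follow Syt10 with age, with a change of 0.07.

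**Figure D5:**
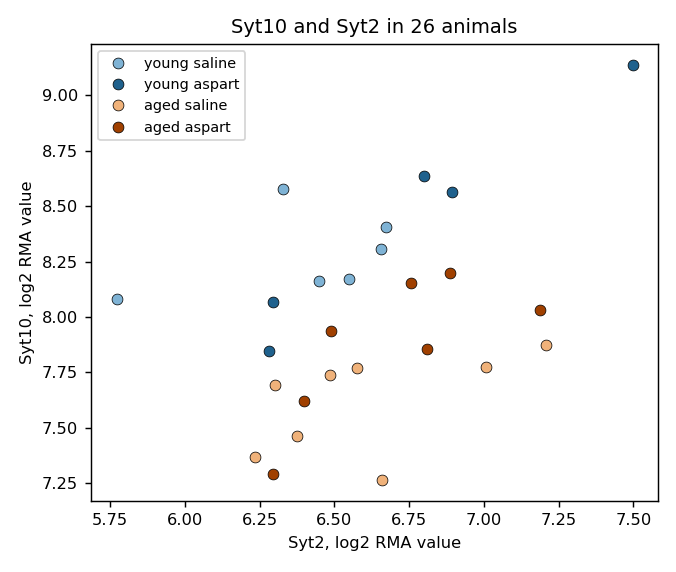
Log2 signal of Syt10 against that of Syt2 in each of the 26 rats, by group. Within groups the genes vary together (Pearson's r 0.73 with group means removed), and the aged rats lie lower on Syt10 at like values of Syt2.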

How the data were processed

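RNA of the right hippocampus of 26 rats was hybridised to Affymetrix rat Clariom S arrays. The authors deposited log2 signals per transcript cluster, made with RMA in Partek per the submitters' processing notes; the table names no log base or genome build, and 216 clusters have means above 16, so folds hold on the table's own scale. Groups came from the labels. The members and gene lists were chosen with earlier results of these data known.

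Of 24834 features, 1646 were controls; genes were named by the platform annotation, and the brightest cluster stood for each of 15037 genes. The filter was set at the 30th percentile of all values, 5.06; the 11475 genes that exceeded it in 5 or more animals were tested with limma 3.58.1 in R 4.3.3 (one mean per group, intensity trend, 7 contrasts, no covariates). p-values judge a difference of group means against the spread between animals within groups, pooled over the 4 groups, and the number of arrays limits precision. RNA integrity numbers were 6.5 to 7.8, with group means of 7.29 to 7.34. Fits were tested on simulated data.

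Genes named in the text are Syt10 in every comparison, called members, the 5 smallest p-values per comparison, leading members of each role, untested members, called genes and the largest aspart change in aged rats of each pathway list, and the 5 genes most like Syt10. Other genes named (Synpr, Sst, Npas4, paralogs of Syt10, extremes of a role, tissue markers) were chosen after their values were seen. Alternatives covered filters, variance settings, normalization, array weights, RNA integrity, replicate numbers, choroid-rich animals and each animal left out; control separation as a covariate was added after seeing the data.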

Additional observations from a re-analysis of the deposited data

Results flagged for a closer look

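In 29 of the fusion genes, 116 groups of 5 to 8 rats were checked for a single rat far from the others, which chance gives in about 1 of 20 groups; 7 were found. Aged saline replicate 7 was the lowest of its group for 3 genes: Nsf at 14.90 (next lowest 15.45), Sv2b at 13.47 (13.89) and Syp at 16.85 (17.28). The same rat had the lowest mean over the 58 tested fusion genes (10.76), the lowest means over interneuron (10.95) and pyramidal cell (11.24) markers and the highest over oligodendrocyte markers (14.22) of all 26 rats. Also in aged saline rats, Snap23 was lowest in replicate 6 at 8.49 (next 8.88) and Vamp8 in replicate 2 at 4.88 (next 5.37), under the brightness filter. Stxbp6 was highest in young aspart replicate 2 at 13.60 (next 13.37). Vamp3 was highest in young saline replicate 5 at 8.33 (next 7.62), the rat with the highest choroid plexus signal. What set these values was not tested.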

How the results depend on the processing

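Over 64 results and 2465 alternative fits, 2377 kept their direction and side of the threshold, 0 lost a call, 6 gained one and 82 changed sign, none of them called. Only 1 of the 64 results, Syt10 with age over both treatments, was called in the main fit, so no other could lose a call. The fall of Syt10 with age over both treatments was called in every fit (-0.70 to -0.54 with 1 animal left out, adjusted p 0.000615 to 0.011). In saline rats alone it was called with array weights (-0.69, adjusted p = 0.0250), with only the groups compared (-0.67, adjusted p = 0.0186) and without young aspart replicate 1 or 3 or aged aspart replicate 4 (-0.67 in each), which makes 1 called gene instead of 0. Over all 26 fits with 1 animal left out that change was -0.71 to -0.61, and 0 to 1 genes were called there and 1 to 2 over both treatments. The interaction of Syt10 was -0.041 without the choroid-rich rats and -0.065 to 0.26 with 1 animal left out; its aspart difference in young rats was -0.0045 to 0.32. Called slopes on control separation went from 18 to 7.

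Same-numbered rats of different groups had a median correlation of 0.0769 over 34 pairs (others -0.0126), and 7 of 20 rats correlated best with their own number. These values were not tested against chance and do not settle whether the numbers mark pairs. The main fit did not use them as pairs. With a replicate block the change of Syt10 with age was -0.64 (adjusted p = 0.00142). Over both treatments, fusion genes with an unadjusted limma p under 0.05 for age went from 7 to 11 with that block. For aspart over both ages they went from 1 to 7. Syt10 with age stayed the only fusion gene called. Of all tested genes, those called for age went from 89 to 79, and for aspart they stayed at 0.

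Sign changes of age results were, with arrays centred, Syt1 -0.012; with RNA integrity, Syt1 -0.0020; without choroid-rich rats, Syt1 -0.0074 and Sv2a -0.011; with array weights, Syt7 -0.0065; with the replicate block, Syt7 -0.012 and Cplx1 -0.0075; after quantile normalization, Snap25 0.031 and Cplx2 0.020; with control separation, Syt1 -0.048, Cplx2 0.023 and Nsf -0.014. With 1 animal left out the ranges were -0.027 to 0.045 for Syt1, -0.047 to 0.059 for Syt7, -0.021 to 0.077 for Cplx1, -0.053 to 0.033 for Cplx2, -0.015 to 0.068 for Syp and -0.021 to 0.069 for Nsf. For aspart in aged rats they were, with array weights, Syt1 0.024, Stx1a -0.037 and Cplx2 -0.015; with the replicate block, Syt1 0.00064; after quantile normalization, Stx1a -0.027, Snap25 -0.030 and Syp -0.025; with control separation, Syt1 0.13, Vamp2 -0.13, Stx1a -0.11, Cplx1 -0.043, Syn1 -0.036, Rab3a -0.013 and Nsf 0.025. With 1 animal left out they were -0.096 to 0.058 for Syt1, -0.023 to 0.20 for Vamp2, -0.047 to 0.065 for Stx1a, -0.011 to 0.16 for Cplx2 and -0.015 to 0.082 for Syp. The cause of these changes was not tested.

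The 89 genes called for age over both treatments were 135 with array weights, 141 with control separation and 150 without aged aspart replicate 6. The 30 called in saline rats were 46 with array weights, 48 with control separation, 15 without moderated variances and 15 to 19 without young saline replicate 1, 2, 3 or 6 or aged saline replicate 7. The 6 called in aspart rats were 10 with array weights, 13 with RNA integrity, 26 with control separation, 3 with only the groups compared, and 2 to 3 without young aspart replicate 2 or 5 or aged aspart replicate 1, 5 or 7.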
